A study of Mus musculus with 17 samples.

Results

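The genes described here are 7 that act on the DNA lesions of somatic hypermutation: Ung, Apex1, Hmces, Msh6, Exo1, Polh and Rev1. They were chosen by name from the deposited counts table, which holds 55536 genes, and all 7 were found and passed the filter on low counts with 15352 genes in all. RNA was sequenced in 17 libraries of B cells sorted from mouse spleen. The knock-in mice, called p52ki, carry an altered allele for p52, the NF-kB subunit made from Nfkb2, and gave 3 libraries of naive, 3 of activated and 2 of germinal centre (GC) B cells. Wild-type (WT) mice gave 3 libraries at each of the same stages. The title given to the series names p52 together with ETS1. None of the sources used here gives the construct of the knock-in, its zygosity, the strain or the age. Replicates are numbered 2, 3 and 5 in p52ki (2 and 5 in GC cells) and 1, 3 and 4 in WT.

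Somatic hypermutation starts when a deaminase turns cytosine into uracil in the antibody genes of activated B cells. Uracil can be cut out by the glycosylase UNG, which leaves an abasic site that the endonuclease APEX1 can nick, that HMCES can shield by bonding to it, or that REV1 can copy across by inserting cytosine. Alternatively the mismatch sensor MSH6, with its partner, and the exonuclease EXO1 open a gap that the error-prone polymerase eta, the product of Polh, fills with mutations at A and T. GC B cells are the main site of this process and also divide fast, and several of these enzymes serve ordinary replication repair too.

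Counts assigned to genes ran from 4067281 to 10036347 per library. Genes with at least 1 count numbered 11390 and 13044 in p52ki GC replicates 2 and 5 and 11232 in WT GC replicate 3, against 16745 to 19672 in the other 14 libraries. These 3 sparse libraries stand apart from WT GC replicates 1 and 4, so both p52ki GC libraries are of the sparse kind and only 1 of 3 WT GC libraries is. Rank correlation of gene levels was 0.766 between the p52ki GC libraries, 0.975 between WT GC replicates 1 and 4, and 0.792 and 0.814 between WT GC replicate 3 and those 2. Some markers followed the labelled stages and some did not. Mki67 of dividing cells was at 123 and 222 CPM (counts scaled to library size, with TMM factors) in p52ki GC cells. It was at 338 to 470 in WT GC cells, and at most 25.9 in any naive or activated library. The GC receptor gene S1pr2 was at 48 to 68.9 CPM in p52ki GC and 153 to 297 CPM in WT GC cells, with at most 8 CPM elsewhere. The B cell gene Cd79a was at 1987 CPM or more in every library. The GC gene Bcl6 was at 73.6 CPM or more in GC libraries, but lower in activated (11.7 to 21.6 CPM) than in naive ones (33.6 to 58.6 CPM). In p52ki the naive cell gene Fcer2a was higher in GC (634 and 771 CPM) than in activated cells (430 to 470 CPM). It was at 297 to 414 CPM in WT GC and 304 to 540 CPM in WT activated cells. Nfkb2 itself does not check the labels, since the construct of the knock-in is not given. It was at 74 to 207 CPM in p52ki and 41.7 to 177 CPM in WT libraries. Library numbers run from 19 to 30 in p52ki and from 1 to 12 in WT, so an effect of library order and of genotype cannot be told apart. In such bulk samples fewer cells of a type and less RNA per cell cannot be told apart either.

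Per kilobase of annotated exon, which allows a rough comparison of levels between genes, Hmces was the most abundant of the 7 in WT GC cells at 359 ± 42.9 CPM per kb (SD, n = 3). Apex1 followed at 72.2, Msh6 at 26.9, Rev1 at 15, Polh at 6.77, Exo1 at 2.64 and Ung at 1.26 CPM per kb, all as means. In p52ki GC cells the means were 125 for Hmces, 61.1 for Apex1, 23.4 for Rev1, 10.6 for Msh6, 2.25 for Exo1, 2.16 for Polh and 0.51 for Ung. Hmces and Apex1 thus head the order of means in both genotypes, whereas Rev1 and Msh6, and Polh and Exo1, change places. The p52ki means of Exo1 and Polh are close, and their order rests on replicate 5. That library had 2.55 CPM per kb of Exo1 and 0.66 of Polh, whereas replicate 2 had 1.96 and 3.66, the order of the WT means. The WT order of Msh6 and Rev1 rests on replicates 1 and 4, since WT GC replicate 3 had 2.53 CPM per kb of Msh6 and 10.7 of Rev1. Exon lengths include bases that overlap other genes, which are many in Apex1 and Rev1, so their places in the order are less certain. The lengths also join the exons of all annotated transcripts of a gene, whether or not these cells use them, so the whole order is approximate.

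Hmces and Rev1 are the 2 members called higher in GC than in activated cells of both genotypes, by the edgeR test described below. Msh6, Exo1 and Polh also had positive log2 differences in both genotypes, but none of them was called in both. The promoters of Hmces and Rev1 are shown for that reason. They are given as the 250 bases before the RefSeq start of transcription on GRCm38.p6. Each runs 5′ to 3′ on the strand of its gene, with CG dinucleotides in capitals. Hmces lies on chromosome 6 (87913935 to 87936629, plus strand, ENSMUSG00000030060) and Rev1 on chromosome 1 (38052786 to 38129801, minus strand, ENSMUSG00000026082), both on GRCm38. These spans are from GENCODE M21, whose starts differ from the RefSeq starts, so both printed stretches overlap the span of their gene.
Hmces, chr6:87913726-87913975: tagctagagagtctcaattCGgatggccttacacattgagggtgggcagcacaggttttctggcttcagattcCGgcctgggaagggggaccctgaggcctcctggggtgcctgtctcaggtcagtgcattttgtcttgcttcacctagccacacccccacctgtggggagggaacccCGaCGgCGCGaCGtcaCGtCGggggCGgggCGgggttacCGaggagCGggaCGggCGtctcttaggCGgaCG
Rev1, chr1:38129667-38129916: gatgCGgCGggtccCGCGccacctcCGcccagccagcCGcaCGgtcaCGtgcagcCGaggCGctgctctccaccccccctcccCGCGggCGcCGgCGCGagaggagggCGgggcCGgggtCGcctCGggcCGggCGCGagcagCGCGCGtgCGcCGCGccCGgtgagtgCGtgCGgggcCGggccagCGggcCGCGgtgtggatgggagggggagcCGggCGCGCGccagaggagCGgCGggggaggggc
In the full window of 300 bases, 250 before the start and 50 after it, Hmces has 22 CG dinucleotides and Rev1 has 51. Of the 7 genes 6 were matched in the RefSeq promoter table, and Polh has 42, Msh6 37, Apex1 31 and Ung 16 of them. The median of all 32851 promoters is 7, and 26.5% have at least 20. Searched on both strands, none of the 6 windows holds an E2F motif (TTTGGCGC or TTTCGCGC, in 0.813% of all promoters), the ETS motif CCGGAAG (8.86%) or the kappaB consensus (4.51%). After the promoters had been read, 2 further E2F forms, TTTCCCGC and TTTGCCGC (1.49% of all promoters), were searched. Msh6 holds the first of them 15 bases past its RefSeq start.
Msh6, chr17:87975054-87975083, plus strand, with that motif in capitals: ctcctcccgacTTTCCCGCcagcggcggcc

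Hmces, which shields abasic sites in single-stranded DNA, was low before the GC and high in it. In naive cells it was at 42.2, 53.5 and 54.7 CPM in p52ki replicates 2, 3 and 5, against 58.6, 56 and 51.1 CPM in WT replicates 1, 3 and 4. Activated cells had 38.7, 86.2 and 45.7 CPM in p52ki, against 98.3, 45.9 and 69.6 CPM in WT. In GC cells it reached 167 and 446 CPM in p52ki replicates 2 and 5, against 861, 782 and 989 CPM in WT replicates 1, 3 and 4. Every GC library was above every other library, and both p52ki GC libraries were below all 3 WT GC libraries, including the sparse WT GC replicate 3. Of all genes tested 15.4% had both p52ki GC libraries below all 3 WT ones, and 15.2% in p52ki and 11.7% in WT had every GC library above every activated one. Differences were tested by the quasi-likelihood method of edgeR, with Benjamini-Hochberg correction across the 15352 genes, and a gene is called at an adjusted p under 0.05. Hmces rose in GC against activated cells by 2.43 in p52ki as a log2 value (SE 0.398, adjusted p = 0.000924) and by 3.62 in WT (SE 0.394, adjusted p = 4.88e-05). In a fit of the p52ki GC and activated libraries alone the p52ki rise did not pass (adjusted p = 0.052). The change in p52ki minus that in WT was -1.19 (SE 0.54, adjusted p = 0.195), which did not pass, and without p52ki GC replicate 5 it was -1.99 (adjusted p = 0.0216). Between GC cells Hmces was lower in p52ki by a log2 difference of -1.52 (SE 0.418, adjusted p = 0.0251). That call rests on few libraries: without p52ki GC replicate 2 the difference was -0.92 (adjusted p = 0.177) and without WT GC replicate 4 -1.42 (adjusted p = 0.0596). Against WT GC replicate 3 alone it was -1.35 (adjusted p = 0.0822). It did not pass in a fit of the 5 GC libraries alone (-1.45, adjusted p = 0.614) or by limma voom with quality weights (-1.51, adjusted p = 0.226), and passed by DESeq2 (-1.46, adjusted p = 0.00429).

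Rev1, a polymerase that inserts cytosine opposite abasic sites and serves as a platform for other translesion polymerases, also rose in the GC. In naive cells it was at 21.5, 23.9 and 31 CPM in p52ki and at 26.3, 33.2 and 28.1 CPM in WT. In activated cells the levels were 27.8, 25.1 and 30 CPM in p52ki and 38.7, 35.8 and 29.1 CPM in WT. In GC cells it was at 168 and 120 CPM in p52ki replicates 2 and 5, against 126, 65.8 and 86.6 CPM in WT replicates 1, 3 and 4. All GC libraries were above all others, and the genotypes overlapped in GC cells because p52ki replicate 5 was below WT replicate 1. The rise from activated cells was 2.38 on the log2 scale in p52ki (SE 0.31, adjusted p = 0.000167) and 1.43 in WT (SE 0.283, adjusted p = 0.00338). Between GC cells Rev1 was the only member with a positive p52ki minus WT difference, 0.63 (SE 0.307, adjusted p = 0.164), and the difference between the rises was 0.95 (SE 0.415, adjusted p = 0.177). Neither passed. Without p52ki GC replicate 5 both did, at 0.94 (adjusted p = 0.0408) and 1.26 (adjusted p = 0.0402), and DESeq2 called the first (0.73, adjusted p = 0.049). Over all alternatives run the first was 0.41 to 1.13 and the second 0.57 to 1.45. In a fit of the WT GC and activated libraries alone the WT rise did not pass (adjusted p = 0.0595). The annotation sets a limit here: 1643 of the 6168 exonic bases of Rev1 overlap exons of Eif5b on the opposite strand, and the strand setting of the counting is not given. Eif5b rose by 0.93 in p52ki (adjusted p = 0.0267) and had a log2 difference of 0.73 in WT (adjusted p = 0.0735) in the same comparison, and its part in the Rev1 counts was not tested.

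**Figure D1:**
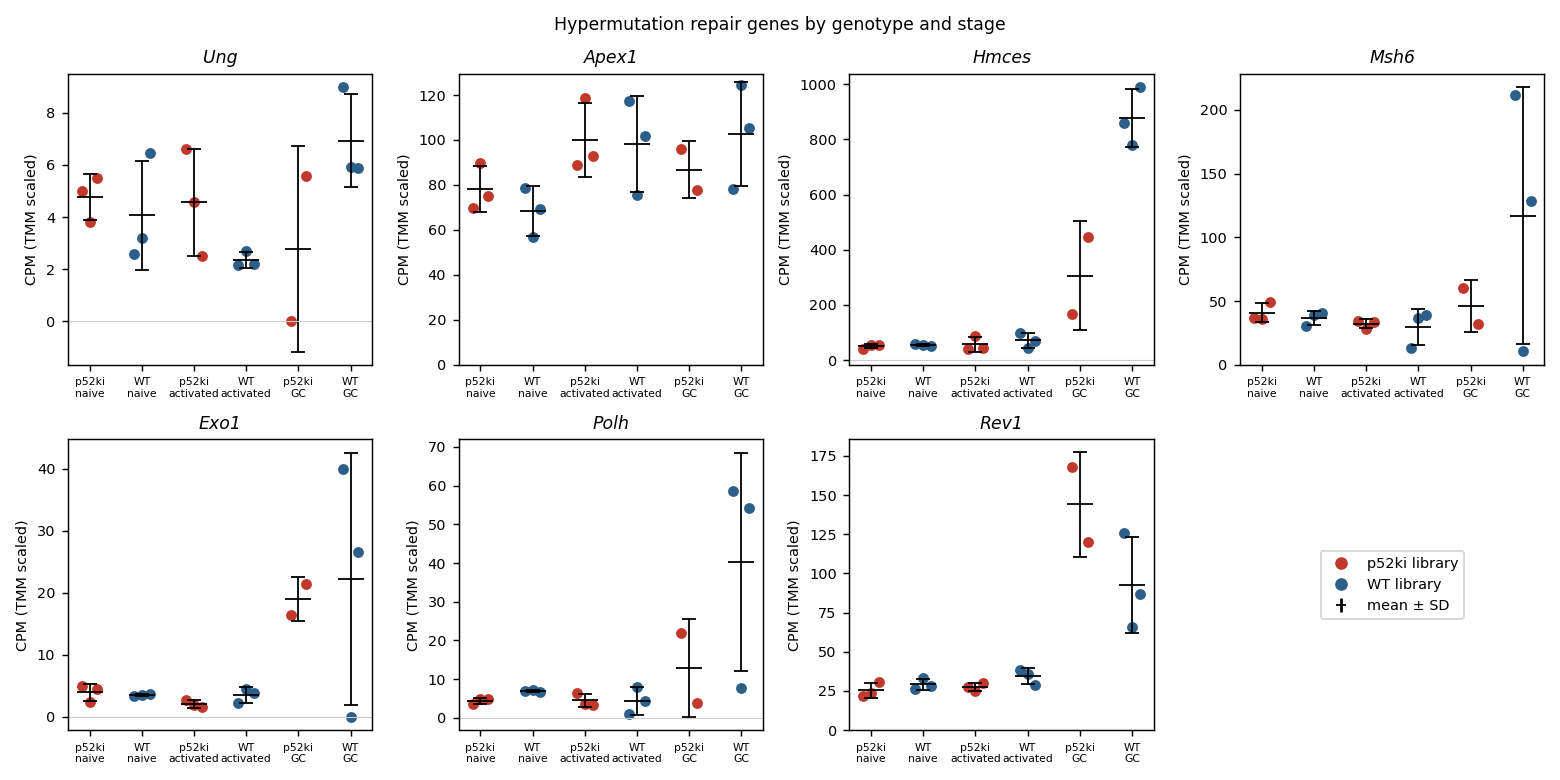
Level of each gene (y axis, CPM scaled by TMM) in the 6 groups (x axis), with 1 point per library in red for p52ki and blue for WT, and bars for the mean ± SD. Hmces and Rev1 are high in all 5 GC libraries, while Msh6, Exo1 and Polh are spread from 11 to 212, 0 to 40 and 7.74 to 58.7 CPM within WT GC cells.

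Msh6, Exo1 and Polh, which act in the mismatch branch, varied between WT GC libraries. Each was high in WT GC replicates 1 and 4 and near or below its naive level in the sparse WT GC replicate 3. Msh6 (ENSMUSG00000005370, chromosome 17, 87975062 to 87990892, plus strand) recognises mismatched bases. It was at 60.3 and 31.7 CPM in p52ki GC replicates 2 and 5, against 212, 11 and 128 CPM in WT GC replicates 1, 3 and 4. Activated cells had 34.6, 28 and 33.7 CPM in p52ki and 13.1, 36.6 and 38.8 CPM in WT, and in naive cells it spanned 36.1 to 49.5 CPM in p52ki and 30.2 to 40.5 CPM in WT. The WT GC libraries thus hold both the highest and the lowest Msh6 level of all 17. From activated to GC cells its log2 difference was 0.52 in p52ki (SE 0.732, adjusted p = 0.636) and 1.98 in WT (SE 0.681, adjusted p = 0.0684). Between GC cells p52ki minus WT was -1.35 (SE 0.77, adjusted p = 0.24). Without WT GC replicate 3 Msh6 passed in both comparisons, at 2.52 for WT GC against activated cells (adjusted p = 0.000562) and -1.77 between genotypes (adjusted p = 0.0102). Against WT GC replicate 3 alone the genotype difference was 2.06 (adjusted p = 0.0302), the opposite direction, where the spread of the single library is borrowed from the other groups.

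Exo1 (ENSMUSG00000039748, chromosome 1, 175880581 to 175913489, plus strand) encodes the exonuclease that removes the strand beside a mismatch. It was at 16.5 and 21.5 CPM in p52ki GC replicates 2 and 5, against 40, 0 and 26.6 CPM in WT GC replicates 1, 3 and 4. The value of 0 allows up to 0.611 CPM, the level of 3 counts in that library, which covers counting error only. Outside the GC it was low, at 1.55 to 4.99 CPM in p52ki and 2.18 to 4.57 CPM in WT naive and activated libraries. All GC libraries but WT replicate 3 were above these ranges. Exo1 rose in p52ki GC against activated cells by a log2 value of 3.17 (SE 1.11, adjusted p = 0.0486), a call lost without any 1 of the 3 p52ki activated libraries (adjusted p = 0.104 to 0.129) or without p52ki GC replicate 5 (0.0591). It was also lost with a replicate block (3.01, adjusted p = 0.17) and by limma voom with quality weights (3.05, adjusted p = 0.157). In WT the log2 difference was 2.64 (SE 1.03, adjusted p = 0.109), and without WT GC replicate 3 it was 3.21 (adjusted p = 0.000133). Between GC cells p52ki minus WT was -0.23 (SE 1.08, adjusted p = 0.911).

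Polh (ENSMUSG00000023953, chromosome 17, 46171355 to 46202645, minus strand) encodes polymerase eta. It was at 21.8 and 3.94 CPM in p52ki GC replicates 2 and 5, against 58.7, 7.74 and 54.3 CPM in WT GC replicates 1, 3 and 4. In naive cells it was at 3.51 to 4.94 CPM in p52ki and 6.71 to 7.25 CPM in WT, which do not overlap. Activated cells had 3.34 to 6.52 CPM in p52ki and 0.909 to 8.04 CPM in WT. Of all genes tested 5.48% were lower in every p52ki than in every WT naive library, and the naive difference of Polh was -0.66 (SE 0.787, adjusted p = 1). From activated to GC cells Polh rose in WT by a log2 value of 3.17 (SE 0.84, adjusted p = 0.0206), and its log2 difference was 1.5 in p52ki (SE 0.866, adjusted p = 0.213) and -0.091 without p52ki GC replicate 2. The WT call was lost without WT GC replicate 1 or 4 (adjusted p = 0.0579 and 0.0577), without WT activated replicate 1 or 4 (0.0562 and 0.0782), in a fit of the WT GC and activated libraries alone (0.123), and with a replicate block (0.0979). With WT GC replicate 3 as the only WT GC library the log2 difference was 0.79 (adjusted p = 0.499). Between GC cells p52ki minus WT was -1.66 (SE 0.917, adjusted p = 0.226).

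Ung and Apex1, which start and continue base excision, were not called by edgeR over all libraries between stages or between genotypes. Ung (ENSMUSG00000029591, chromosome 5, 114130386 to 114139323, plus strand) was at 0 and 5.58 CPM in p52ki GC replicates 2 and 5, against 8.98, 5.91 and 5.87 CPM in WT GC replicates 1, 3 and 4. The 0 allows up to 0.727 CPM. In the other libraries Ung stayed between 2.5 and 6.62 CPM in p52ki and between 2.18 and 6.46 CPM in WT, so it was low throughout. Its GC against activated difference was -0.67 on the log2 scale in p52ki (SE 0.93, adjusted p = 0.628) and 1.54 in WT (SE 0.828, adjusted p = 0.256). All 3 WT GC libraries were above all 3 WT activated libraries for Ung, and limma voom with quality weights called it there (1.58, adjusted p = 0.0199). For Ung p52ki minus WT in GC cells was -1.27 (SE 0.947, adjusted p = 0.375). Without p52ki GC replicate 2, the library at 0, the genotype difference was -0.25. Without p52ki GC replicate 5 it was -8.85 (adjusted p = 0.0014), a fitted value against a library at 0 that is no fold change. Apex1 (ENSMUSG00000035960, chromosome 14, 50924968 to 50927139, plus strand) was even across the study. It was at 95.9 and 77.8 CPM in p52ki GC replicates 2 and 5, against 78.1, 124 and 105 CPM in WT GC replicates 1, 3 and 4, and at 57 to 119 CPM in the naive and activated libraries. Its log2 difference in GC cells was -0.24 (SE 0.274, adjusted p = 0.575). Of the 1422 exonic bases of Apex1, 877 overlap Pip4p1 on the opposite strand. How reads in those bases were assigned is not given, so its counts are uncertain. Shorter overlaps are annotated for Hmces (154 bases) and Msh6 (34 bases).

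**Figure D2:**
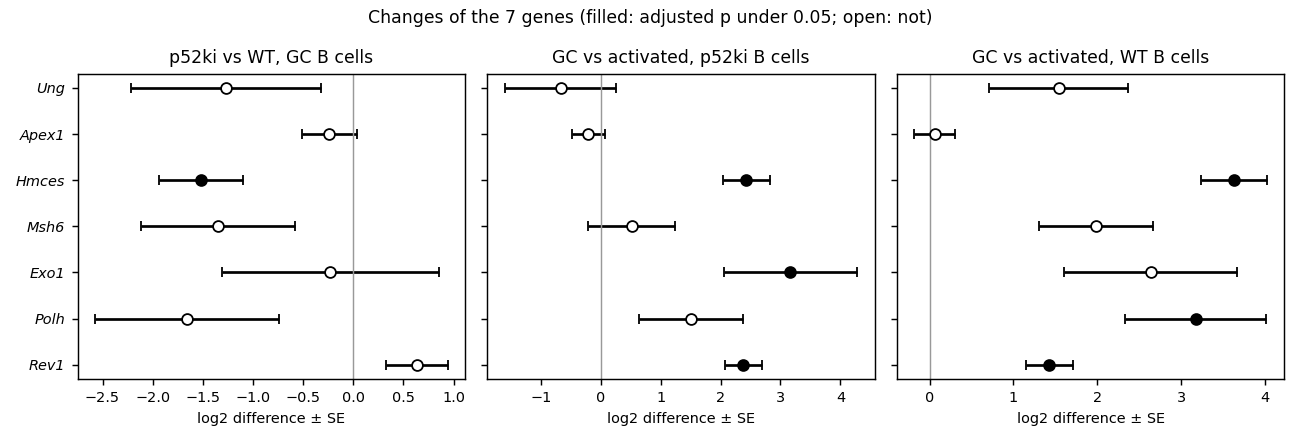
Log2 differences (x axis) ± SE of the 7 genes (y axis) in 3 comparisons, with filled points for an adjusted p under 0.05 and open points otherwise. Hmces is the only gene filled in all 3 panels, and Rev1 is filled in both comparisons of GC with activated cells.

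Counted together, 3 of the 7 genes rose in p52ki GC against activated cells (Hmces, Rev1 and Exo1) and 0 fell, where 6.34% of all genes tested were called higher and 19.3% lower. In WT 3 of 7 rose (Hmces, Rev1 and Polh) and 0 fell, with 5.8% and 7.75% of all genes. The WT count was 5 without WT GC replicate 3, 5 by DESeq2, and 1 in a fit of the 2 groups alone. The median log2 difference over the 7 was 1.5 in p52ki and 1.98 in WT, against -0.41 and -0.13 over all genes tested. The stage comparisons share their GC libraries with the genotype comparison. Between genotypes in GC cells 0 of 7 were higher and 1, Hmces, was lower in p52ki, where 3.75% of all genes were called higher and 12.2% lower. So 1 of 7 is near the share of all genes called lower. The median over the 7 was -1.27, with 6 of 7 negative, and -0.32 over all genes. For the difference of the GC against activated change between genotypes 0 of 7 were called (0.977% of all genes higher, 4.97% lower), and 2, Hmces and Rev1, had an unadjusted p under 0.05, while DESeq2 and limma also called 0.

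Before the GC none of the 7 genes passed in edgeR's test. Naive p52ki and WT cells gave 0 calls among the 7 and 0% over all genes by edgeR, where 0 of the 7 had an unadjusted p under 0.05, and DESeq2 and limma called 0 of the 7. In activated cells 0 of the 7 were called between genotypes (0.013% of all genes), and 0 had an unadjusted p under 0.05. Activated against naive cells gave 0 of 7 in p52ki (0.117% of all genes, and 0 with an unadjusted p under 0.05) and 0 of 7 in WT (0.319%), where Apex1 had an unadjusted p of 0.0494. DESeq2 also called 0 of the 7 in these comparisons, and limma voom with quality weights called 1 in WT. The order of group means put WT GC cells first for 6 of the 7 and p52ki GC cells first for Rev1. Adjacent groups in that order overlapped in their libraries at every step for Apex1 and Msh6 and at all but the steps that follow for the others. The percentages are of all genes tested with the first group wholly above the next in the same pair. For Hmces, WT GC stood clear of p52ki GC (15.4%), which stood clear of WT activated cells (13.9%). For Rev1, WT GC stood clear of WT activated cells (11.7%). For Exo1, p52ki GC stood clear of p52ki naive cells (17.4%), and WT naive cells of p52ki activated cells (10.6%). For Polh, WT naive stood clear of p52ki activated cells (10.6%), and for Ung, WT GC stood clear of p52ki naive cells (14.7%).

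Other repair genes were counted from lists written with earlier results of these data known. The counts stand against 6.34% of all genes called higher and 19.3% lower in p52ki GC against activated cells, and 5.8% higher and 7.75% lower in WT, and some of them are near or below those shares. In WT GC against activated cells 6 of 19 base excision genes rose and 0 fell, among them Neil1, a glycosylase for oxidised bases (log2 3.3, SE 0.347, adjusted p = 3.9e-05), and Fen1, the flap nuclease (2.11, SE 0.286, adjusted p = 0.000203). In p52ki 3 rose and 3 fell, with Neil1 at 2.42 (SE 0.356, adjusted p = 0.000434). Of 17 mismatch and gap filling genes 5 rose and 2 fell in p52ki and 9 rose and 0 fell in WT, with the sliding clamp Pcna at 1.16 in p52ki and 1.83 in WT (adjusted p = 0.00388 and 0.000103). Among 18 translesion genes 2 rose and 2 fell in p52ki, and 4 rose and 0 fell in WT. The clamp modifier Ube2n (1.07 in p52ki, 1.14 in WT) and the polymerase zeta subunit Rev3l (1.24 and 1.45), which works with REV1, rose in both. Uracil and nucleotide supply had 4 of 10 higher and 1 lower in p52ki and 6 higher and 0 lower in WT, and Dut, which destroys dUTP, rose by 2.45 in p52ki and 2.23 in WT (adjusted p = 0.000396 and 0.000426). End joining had 1 higher and 1 lower of 17 in p52ki and 3 higher and 0 lower in WT, with the histone gene H2afx at 2.42 and 2.63. Abasic site and crosslink handling had 0 of 10 called in p52ki and 2 higher in WT, and cofactors of transcription had 2 of 13 higher in each genotype. Only genes that rose are named here, and those that fell are counted without names. In p52ki the median log2 differences were -0.49 for base excision, -0.34 for translesion and -0.23 for end joining genes, against -0.41 over all genes. The other lists had positive p52ki medians, at 0.24 to 0.89. Without WT GC replicate 3, a setting chosen after seeing the data, the WT counts in the order base excision, mismatch, translesion, nucleotide supply, end joining, abasic site and cofactors were 7, 9, 5, 7, 4, 3 and 1, with 8.29% of all genes then called higher.

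Between GC cells the calls in these lists were mostly lower in p52ki, as over all genes, where 12.2% were called lower and 3.75% higher. The lower calls were 6 of 19 for base excision, 5 of 17 for mismatch and gap filling, 2 of 18 for translesion synthesis, 1 of 10 for abasic sites and crosslinks, 4 of 17 for end joining and 4 of 10 for nucleotide supply, with 0 higher in each. The transcription cofactors had 1 higher and 1 lower of 13. The counts of translesion and abasic site genes are near the share of all genes. Without WT GC replicate 3, where 20.2% of all genes were called lower and 8.49% higher, the lower counts of the first 6 lists were 9, 6, 3, 3, 3 and 4, and end joining had 1 higher, while the cofactors had 1 higher and 3 lower. Fen1 was at 78.5 and 65.9 CPM in p52ki GC replicates 2 and 5, against 234, 195 and 207 CPM in WT GC replicates 1, 3 and 4 (log2 -1.56, SE 0.324, adjusted p = 0.00646). Pold2, a subunit of polymerase delta, was at 6.3 and 12 CPM in p52ki and 39.2, 57 and 37.3 CPM in WT (log2 -2.27, SE 0.407, adjusted p = 0.00237). Primpol, a primase that restarts stalled forks, was at 11.9 and 30.5 CPM in p52ki and 57.3, 70.7 and 70.4 CPM in WT (log2 -1.64, SE 0.364, adjusted p = 0.00935). These genes were named for their small p, so that their WT libraries lie together follows from the choice. The ribonucleotide reductase gene Rrm1 was at 49.4 and 48.2 CPM in p52ki and 457, 82.7 and 458 CPM in WT.

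Cell cycle lists also rose in GC cells. Of 29 S phase genes 12 rose and 1 fell in p52ki GC against activated cells and 20 rose in WT, where 6.34% of all genes rose and 19.3% fell in p52ki and 5.8% rose in WT. Between GC cells 5 of the 29 were lower in p52ki, near the 12.2% of all genes, and 15 without WT GC replicate 3, against 20.2%. Of 22 G2 and M phase genes 18 rose in p52ki GC against activated cells and 20 in WT, and 0 fell. Between GC cells 6 of these 22 (27.3%) were lower in p52ki and 0 higher. Without WT GC replicate 3 the lower ones were 10 (45.5%). The 29 S phase genes summed to 1887 and 2532 CPM in p52ki GC replicates 2 and 5, against 5738, 2269 and 5693 CPM in WT GC replicates 1, 3 and 4, and to 855 to 1088 CPM in all naive and activated libraries. The 22 G2 and M phase genes summed to 1812 and 2629 CPM in p52ki and 5657, 3515 and 5501 CPM in WT GC libraries, and to at most 562 CPM elsewhere. WT GC replicate 3 was thus between the p52ki libraries for S phase and above both for G2 and M phase. The part of division in the levels of the 7 genes was not tested. Markers of naive follicular B cells summed to 1533 and 1748 CPM in p52ki GC replicates 2 and 5, against 540, 861 and 769 CPM in WT GC replicates 1, 3 and 4, with none at 0. In p52ki 5 of these 7 passed as higher and 0 as lower, where 3.75% of all genes were called higher. Markers of marginal zone and B-1 cells summed to 905 and 728 CPM in p52ki and 468 to 556 CPM in WT GC libraries, and those of GC B cells to 892 and 1568 CPM in p52ki and 1446 to 2091 CPM in WT. Both p52ki GC libraries thus had higher sums of the naive and of the marginal zone lists than any WT GC library. Of the 8 marginal zone and B-1 markers 2 passed as higher in p52ki and 1 as lower. Cr2 was at 376 and 422 CPM in p52ki and 131 to 164 CPM in WT GC libraries. Cd9 was at 67.7 and 82.4 CPM in p52ki and 1.02 to 14.9 CPM in WT. For S1pr3, Cd1d1, Dtx1, Cd5, Zbtb20 and Myof the GC libraries of the genotypes overlapped. Erythroid and platelet markers summed to 326 and 372 CPM in p52ki, with 5 of 9 at 0 in each, against 48.9, 62.1 and 236 CPM in WT, with 3, 7 and 1 of 9 at 0. T cell markers summed to 38 and 0.82 CPM in p52ki, with 8 and 9 of 10 at 0, against 9.57 to 13 CPM in WT, with 9 of 10 at 0 in replicate 3 and 1 in each other. The 38 CPM were mostly Cd3e, at 26.6. Natural killer cell markers summed to 33.4 and 0 CPM in p52ki and 0 to 7.5 CPM in WT GC libraries. Macrophage and dendritic cell markers summed to 29.6 and 92.4 CPM in p52ki and 27 to 48.6 CPM in WT, with 8 of 12 at 0 in each of the 3 sparse libraries, p52ki or WT, and Lyz2 and Csf1r at 0 in both p52ki libraries. Plasma cell markers summed to 2847 and 2919 CPM in p52ki and 2968 to 6079 CPM in WT. The part of these cell types in the levels of the 7 genes was not tested.

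**Figure D3:**
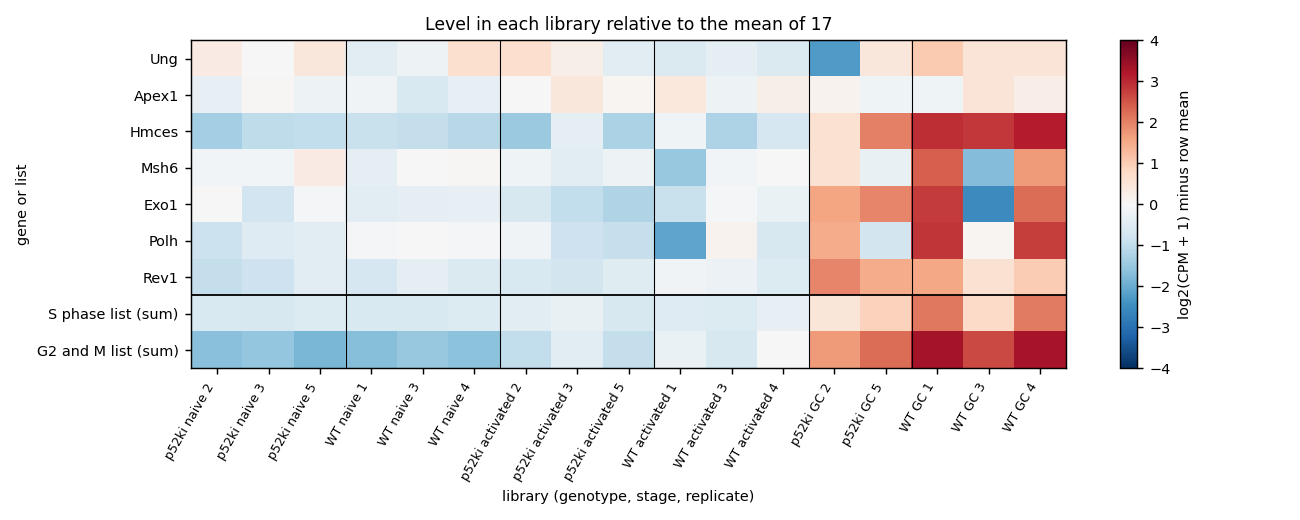
Level of each gene, and of the summed S phase and G2 and M phase lists, in each library (x axis) as log2(CPM + 1) minus the mean over the 17 libraries, in colour from -4 to 4. Hmces is high in WT GC replicate 3, where Msh6 and Exo1 are below their mean, S phase genes sum to 2269 CPM and G2 and M phase genes to 3515 CPM.

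Across the 17 libraries the members are compared without a test, since libraries of a group share their state and GC libraries set most of the range. On log2 CPM with a prior count of 2, Msh6 correlated with Exo1 (Pearson r 0.83, Spearman rho 0.752) and Polh (0.814 and 0.586), and Hmces with Rev1 (0.818 and 0.701). Pearson r was 0.624 for Polh and Rev1, 0.607 for Polh and Hmces, 0.585 for Exo1 and Polh, 0.569 for Exo1 and Rev1 and 0.418 for Msh6 and Rev1, so the pairs grade into each other. Hmces and Msh6 had r 0.325, Hmces and Exo1 0.342, and Ung and Apex1 had no r beyond 0.367 in either direction with any member. Among 9181 other genes averaging 5 CPM or more, those most like Hmces were Mad2l1 of the spindle checkpoint (r 0.984), the histone chaperone Asf1b (0.983) and Hpf1, a partner of PARP1 (0.981). Those most like Rev1 were the ubiquitin conjugating enzyme Ube2k (0.935), Pmvk of the mevalonate pathway (0.929) and the histone acetyltransferase Hat1 (0.927). For Msh6 they were G2e3 (0.945), Nsmaf (0.929) and Abca3 (0.929), for Exo1 they included BC055324 (0.952) and Cep57 (0.932), and for Polh Aacs (0.92), Rfwd3 (0.916) and Bora (0.915). For Ung they were Ippk (0.953), N4bp3 (0.934) and Cul3 (0.933), and for Apex1 Nrgn (0.904), Suclg1 (0.884) and Mrpl37 (0.84).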

How the data were processed

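The deposited counts are raw whole numbers per gene, made by the authors on GRCm38. The submitters' processing notes name Subread 1.6.2 with featureCounts, HISAT2 2.1.0 and SAMtools 1.8. Per the labels' protocols, cDNA was made by SMARTSeq v2 in 17 PCR cycles from 0.5 ng of RNA, or from part of any sample too dilute to quantify, and the labels do not say which samples those were. No molecular identifiers are named there, so floors reflect counting error alone. Neither the strand setting nor the annotation release is given in the sources used here. Gene spans came from GENCODE M21, which matched all 55536 identifiers, and promoters from RefSeq. Genes were filtered with filterByExpr, TMM-scaled, and tested in edgeR 4.0.16 (R 4.3.3, glmQLFit with robust estimation, glmQLFTest) with 1 coefficient per group over 17 libraries. Alternatives used DESeq2 1.42.0, limma 3.58.1, other filters and scalings, and omitted libraries. The test was checked on simulated counts, with the same mean per gene in all groups except for genes changed in p52ki GC cells. No sparse libraries were simulated, so that check does not cover the sparse GC libraries. Members, lists and tests were chosen with earlier results of these data known. Named list genes are among the 3 called with the smallest p per list and direction, and Rev1's and Hmces's promoters stand for the genes called in both genotypes. Cd3e, Lyz2, Csf1r, Fcer2a, Bcl6 and the single marginal zone and B-1 markers were named after their values were seen. The E2F forms in Msh6 were added later. A planned search of protein motifs was not made, and 1 of the genes most like Exo1 is not reported here. Whether replicates are separate animals is not stated in the labels, and p-values then measure only the spread between samples, which may be technical.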

Additional observations from a re-analysis of the deposited data

How the results depend on the processing

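Of the 9 comparisons, the count of called genes among the 7 was 0 under every alternative run for p52ki against WT in naive cells and in activated cells, for activated against naive p52ki cells and for the difference of that change between genotypes. In activated against naive WT cells it was 1 by limma voom with quality weights and 0 otherwise. For GC against activated WT cells (3 of 7) it was 5 by DESeq2, 5 with detected genes as a covariate, 6 by limma voom with quality weights, 1 in a fit of the groups compared, and 2 to 5 with a library left out. For p52ki GC against activated cells (3 of 7) it was 5 with that covariate and 2 to 4 with a library left out. For p52ki against WT in GC cells (1 of 7) it was 2 by DESeq2, 2 with the covariate, 0 by limma voom with quality weights, 0 in the fit of the groups compared, 3 against WT GC replicate 3 alone and 0 to 3 with a library left out. For the difference of the GC against activated change (0 of 7) it was 1 with the covariate, 2 with WT GC replicate 3 alone and 0 to 3 with a library left out. Where 1 library is left in a group it is assumed to vary like the other groups.

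With a replicate block the count was 2 of 7 for GC against activated cells in both p52ki and WT, losing Exo1 in p52ki (log2 3.01, adjusted p = 0.17) and Polh in WT (3.23, adjusted p = 0.0979), and the block changed no other count. Same-numbered libraries of a genotype had deviations correlated at -0.229 to 0.281 (median 0.0451), and other-numbered ones at -0.23 to 0.317 (median -0.0184). Between naive and activated cells alone, same-numbered pairs were at 0.0786 to 0.281 and other-numbered ones at -0.23 to 0.147. Deviations from means of so few libraries are tied to each other, so these values cannot settle whether the numbers mark pairs. The main fit left the numbers out, and the block was run as an alternative. No paired analysis was made between genotypes, because they come from different mice and a replicate number does not pair them. With the block 2423 genes in all were called in p52ki, against 3930 without it, and 1272 against 2081 in WT. Over all alternatives calls over all genes ran from 543 to 6356 for WT, 186 to 5436 for p52ki GC against activated cells, and 0 to 4472 between genotypes in GC cells.

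Directions that turned, as log2 differences, were these. Against WT GC replicate 3 alone p52ki GC minus WT was 2.06 for Msh6, 0.72 for Polh and 10.2 for Exo1, and with the covariate 1.49, 0.52 and 4.85. Exo1 was 1.85 there with the replicate as a random effect, and -0.69 to 0.50 with a library left out, and Apex1 was -0.40 to 0.0414. WT GC replicate 3 alone minus activated cells was -1.43 for Msh6 and -7.81 for Exo1. The values 10.2 and -7.81 are fitted against 0 counts and are no folds. For the difference between genotypes of this change Msh6 was 1.94 and Polh 0.71 with WT GC replicate 3 alone, 1.68 and 0.68 with the covariate, and Apex1 was -0.43 to 0.0127 with a library left out. Apex1 in WT GC against activated cells was -5e-04 by DESeq2, -0.0846 with the covariate, -0.0711 by limma and -0.11 to 0.28 with a library left out. In p52ki GC against activated cells, leaving out a library gave -0.28 to 0.0597 for Apex1, -0.091 to 2.39 for Polh and -8.21 to 0.39 for Ung, and the covariate gave 0.10 for Ung. The cause of these shifts was not tested. Hmces kept its direction under every alternative run, at -2.31 to -0.92 between genotypes in GC cells and 1.67 to 3.07 for the rise in p52ki and 3.39 to 3.97 for that in WT. Low counts limit Ung, which had 0 to 70 counts per library. Exo1 had more counts than Ung in every GC library but WT GC replicate 3. Its SE between genotypes in GC cells was still larger, at 1.08 against 0.947. The WT GC libraries of Exo1 were spread over 40, 0 and 26.6 CPM in replicates 1, 3 and 4.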
